A study of Mus musculus with 6 samples.

Results

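Genes of the interleukin and interferon receptors were followed in GMPs, the granulocyte-macrophage progenitors of bone marrow, which give rise to granulocytes and monocytes. The members were all genes whose mouse symbol begins with Il, a number and r, or names an interferon alpha, gamma or lambda receptor chain, together with Il6st and Crlf2. Il3ra, Il5ra and Il6ra were left out by that rule. It took 45 of 37620 gene rows. One of them, Il1rn, encodes the secreted interleukin-1 receptor antagonist and not a receptor.

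RNA from 6 GMP libraries of C57BL/6 mice was compared. The 3 control libraries came from Bap1 f/f mice, and the 3 knockout-labelled ones from mice of genotype MX1+ Cre Bap1 f/f; Bap1 encodes a deubiquitinase that removes ubiquitin from histone H2A. Every mouse carried the floxed Bap1 alleles and had been given polyI:polyC, a double-stranded RNA mimic that induces interferon and so turns on Cre from the Mx1 promoter. The labels give an age of 65 days with polyI:polyC at 42 days, and the series' design text places the injection earlier. Cre was present in the knockout-labelled group only, so its effect and that of Bap1 deletion cannot be told apart. The Mx1 promoter responds to interferon in many cell types, so Cre from it is not restricted to GMPs. The labels do not say whether libraries came from separate animals, and p-values then measure the spread between these libraries.

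Interleukin receptors are built from a chain that binds 1 cytokine and chains shared between several. Most class I and class II receptors, which include the interferon receptors, pass the signal through JAK kinases to STAT factors, while interleukin-1 type and interleukin-17 type receptors signal through MyD88, Act1 and TRAF6 to NF-kB. In myeloid progenitors, interferons, interleukin-1 and gp130 cytokines are known to alter the output of granulocytes and monocytes.

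Libraries held 19.5 to 25.9 M reads in genes. Bap1 itself was higher in the knockout-labelled libraries, at 1139 ± 181 normalized counts in control and 2983 ± 319 in knockout (SD, n = 3 libraries each), which goes against the label, although a count over the whole gene does not check a deletion of part of it. All 12 GMP marker genes were read in both groups, with Mpo, the myeloperoxidase gene, at 509919 ± 18682 and 635306 ± 122886. Of these 12, 5 were higher, among them Elane (1.66-fold), and 3 lower: Cd34, at 11499 ± 296 and 3963 ± 244, and Fcgr3, at 13250 ± 728 and 7836 ± 1485, which encode surface proteins of the sort, and Csf1r. Genes listed as markers of other lineages were read too. In the knockout-labelled libraries 11 of 11 tested B lymphoid marker genes were lower, as were 9 of 11 dendritic and 9 of 11 monocyte and macrophage markers. Of 11 neutrophil markers 2 were higher and 0 lower. Among those not called, the knockout-labelled libraries were spread widely. Ngp was at 152953, 149813 and 60491 in knockout-labelled libraries 1 to 3, against 75076 ± 13597 in control. S100a8 was at 40919, 46274 and 9976, against 30962 ± 5237. Knockout replicate 3 was the lowest of its group for both, but the highest for Cxcr2. Erythroid and megakaryocyte markers numbered 13, with 4 higher (Hbb-bt 10.2-fold) and 3 lower (Pf4 8.13-fold). Among 5 tested stromal and endothelial markers 1 was higher (Vcam1 5.03-fold) and 3 lower (Spp1 17.9-fold). In that list Cdh5 had no read in any library, and Col1a1 and Lepr had none in control. Vcam1 was at 3648 ± 113 and 18334 ± 3009 and Pecam1, not called, at 1139 ± 189 and 1098 ± 277. Which cells gave the Vcam1 reads was not tested. Beside these and later marker counts, 11.8% of all genes tested were higher and 15.0% lower. In bulk RNA, fewer cells of a type and less RNA per cell cannot be told apart.

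Of the 45 members, 32 reached a mean normalized count of 10 and were tested with limma over all genes. In the knockout-labelled libraries 5 members were higher and 13 lower at a Benjamini-Hochberg adjusted p of 0.05. Those were 15.6% and 40.6% of the tested members, while 11.8% of the 14391 genes tested were called higher and 15.0% lower. All 3 knockout-labelled libraries lay above all controls for 5 tested members and below them for 13, against 20.4% and 22.5% of all genes tested. The median log2 fold change was -0.54 over the members tested and 0.01 over all genes tested. The count of members called fell to 3 higher without control replicate 3 or knockout replicate 2, and to 6 lower without control replicate 1 or 8 without knockout replicate 2. Ifngr1, Ifngr2, Ifnar2, Il6st, Il21r, Il2rb, Il1rl2, Il17ra and Il20rb kept their calls in each alternative that tested them, and the other 9 called members each lost theirs without 1 or more single libraries.

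**Figure D1:**
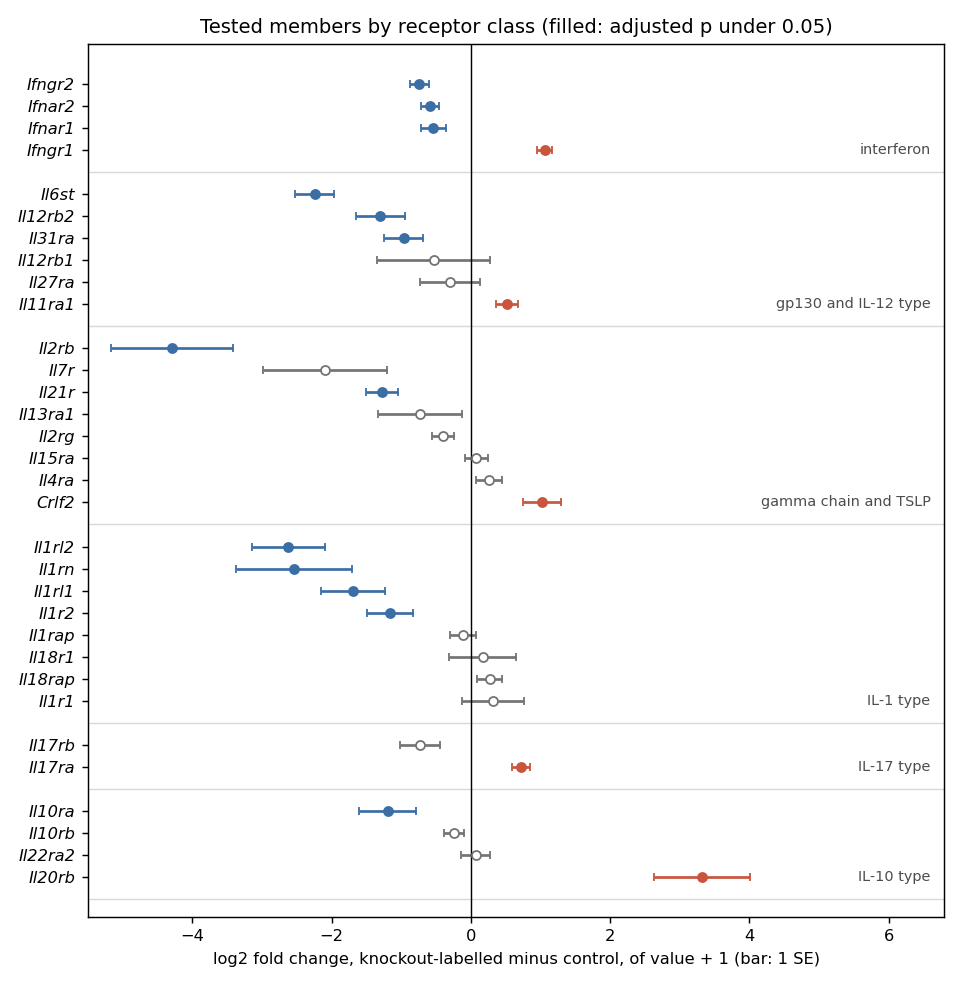
Log2 fold change of the 32 tested members (knockout-labelled minus control, on value + 1, bar 1 SE), grouped by receptor class, with filled points for adjusted p under 0.05. Filled points lie on both sides of 0 in every class with at least 2 calls except the interleukin-1 type, whose 4 calls are all lower.

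Promoter windows from RefSeq (build GRCm38.p6, the 250 bases before the annotated start, gene strand) were matched by symbol to 38 of the 45 members. Bases shortly after the start were found in a transcript of the gene for 32 of 34 plus-strand and 8 of 12 minus-strand member windows. For the rest, the annotated start was not borne out in this way. The windows of 6 members are printed because the results turn on them. Ifngr1 and Ifngr2 encode the chains of 1 receptor and moved in opposite directions, Ifnar2 lies near Ifngr2 and fell with it, Il6st and Il31ra are neighbours that both fell, and Il20rb had the largest rise. Capitals mark the letters TTCNNNGAA, a pattern bound by STAT factors, on either strand (the pattern reads the same on both).
Ifngr1, chr10:19591699-19591948, plus strand: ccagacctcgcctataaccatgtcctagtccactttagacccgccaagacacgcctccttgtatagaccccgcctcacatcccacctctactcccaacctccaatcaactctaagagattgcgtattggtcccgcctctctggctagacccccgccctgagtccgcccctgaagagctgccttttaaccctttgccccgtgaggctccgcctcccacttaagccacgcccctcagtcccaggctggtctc
Ifngr2, chr16:91546809-91547058, plus strand: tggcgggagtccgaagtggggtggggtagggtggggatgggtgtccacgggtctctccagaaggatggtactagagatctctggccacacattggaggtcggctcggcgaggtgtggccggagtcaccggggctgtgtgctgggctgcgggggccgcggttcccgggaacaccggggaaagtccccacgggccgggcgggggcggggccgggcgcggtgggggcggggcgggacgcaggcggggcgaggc
Ifnar2, chr16:91372533-91372782, plus strand: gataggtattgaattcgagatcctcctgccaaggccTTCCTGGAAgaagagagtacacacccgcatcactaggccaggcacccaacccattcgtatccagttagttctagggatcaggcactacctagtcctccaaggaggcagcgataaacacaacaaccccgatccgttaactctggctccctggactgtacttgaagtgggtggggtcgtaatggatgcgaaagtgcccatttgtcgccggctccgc
Il6st, chr13:112463820-112464069, plus strand: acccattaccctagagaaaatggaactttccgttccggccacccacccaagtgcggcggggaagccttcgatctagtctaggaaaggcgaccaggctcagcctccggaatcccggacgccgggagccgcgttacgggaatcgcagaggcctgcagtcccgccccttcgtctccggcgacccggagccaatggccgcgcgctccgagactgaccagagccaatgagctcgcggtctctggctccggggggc
Il31ra, chr13:112580663-112580912, minus strand: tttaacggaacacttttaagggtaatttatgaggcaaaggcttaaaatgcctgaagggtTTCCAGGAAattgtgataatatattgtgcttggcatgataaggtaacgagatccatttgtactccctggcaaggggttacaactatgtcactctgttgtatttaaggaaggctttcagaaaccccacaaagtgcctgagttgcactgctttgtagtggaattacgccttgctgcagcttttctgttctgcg
Il20rb, chr9:100486474-100486723, minus strand: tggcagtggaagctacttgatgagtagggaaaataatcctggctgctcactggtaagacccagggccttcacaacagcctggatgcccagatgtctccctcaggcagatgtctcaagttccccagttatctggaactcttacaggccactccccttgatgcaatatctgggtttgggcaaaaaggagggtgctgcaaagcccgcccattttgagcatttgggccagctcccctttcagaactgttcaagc
TTCNNNGAA stood in the windows of Ifnar2 and Il31ra, and also in those of Il12rb2, Il1r2, Il7r and 1 of the windows of Il18r1, or 6 of 46 member windows, against 7.0% of all 32851 windows. A pattern of the interferon-stimulated response element (ISRE) was in 0 of 46 member windows and 3.0% of all windows. The PU.1-like letters GAGGAAGT were in that of Il18rap alone among the members and in 2.4% of all. A match is a description of letters and no site of binding. The windows differed widely in CpG dinucleotides: Il6st held 26, Ifngr2 25, Ifngr1 and Ifnar2 11 each, Il31ra 4 and Il20rb 1.

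The 2 chains of the interferon-gamma receptor moved in opposite directions. Ifngr1 (ENSMUSG00000020009), the chain that binds interferon-gamma, was at 17641, 18554 and 19424 normalized counts in control libraries 1 to 3 and at 40518, 39506 and 35744 in knockout-labelled libraries 1 to 3. All knockout-labelled libraries lay above all controls, 2.08-fold by the means (log2 fold change 1.06, SE 0.11, limma adjusted p = 6.69e-05). Ifngr1 made up 50.5 to 53.9% of the summed normalized counts of all members in control and 72.0 to 75.6% in knockout-labelled libraries. Ifngr2 (ENSMUSG00000022965), the partner chain that carries JAK2, went the other way: it was at 2157, 1978 and 2161 in control and 1061, 1388 and 1346 in knockout, 1.66-fold lower (log2 fold change -0.74, SE 0.14, limma adjusted p = 0.00238). The groups did not overlap for either chain.

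Both chains of the type I interferon receptor were lower. Ifnar2 (ENSMUSG00000022971), its high-affinity binding chain, was at 3957, 3638 and 3675 in control and 2738, 2764 and 2065 in knockout-labelled libraries, 1.49-fold lower (log2 fold change -0.59, SE 0.13, limma adjusted p = 0.00787). Ifnar1, which carries TYK2, was at 797, 802 and 599 against 463, 460 and 587, and the groups were separated only by the narrow gap between control replicate 3 and knockout replicate 3 (log2 fold change -0.54, limma adjusted p = 0.0416). Leaving out control replicate 1 (adjusted p = 0.144) or 2 (0.159) or knockout replicate 1 (0.0849) or 2 (0.111) ended the call, as did correction for GC content and length (0.0683). Ifnlr1, the interferon-lambda chain, was below the tested range, at 0.888, 21.0 and 8.91 in control and 7.47, 6.25 and 0 in knockout. Control replicate 1 and knockout replicate 3 were the low libraries, and the groups overlapped.

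Levels between genes are compared per kilobase of exon. In control, Ifngr1 stood at 6512 normalized counts per kb, Ifnar2 at 1129, Ifngr2 at 557 and Ifnar1 at 123. The ratio of Ifngr1 to Ifngr2 per kb was 10.8, 12.4 and 11.9 in control libraries and 50.5, 37.7 and 35.1 in knockout-labelled ones, or 11.7 ± 0.812 and 41.1 ± 8.25 (SD, n = 3). The 2-sided exact permutation p was 0.1, the smallest that 3 against 3 allows, and 0.15 after Benjamini-Hochberg adjustment over 9 such pairs, which were picked after the values were seen. The ratio of Ifnar1 to Ifnar2 was 0.109 ± 0.0164 and 0.116 ± 0.0377 (exact permutation p = 0.8, adjusted 0.90), with overlapping groups.

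**Figure D2:**
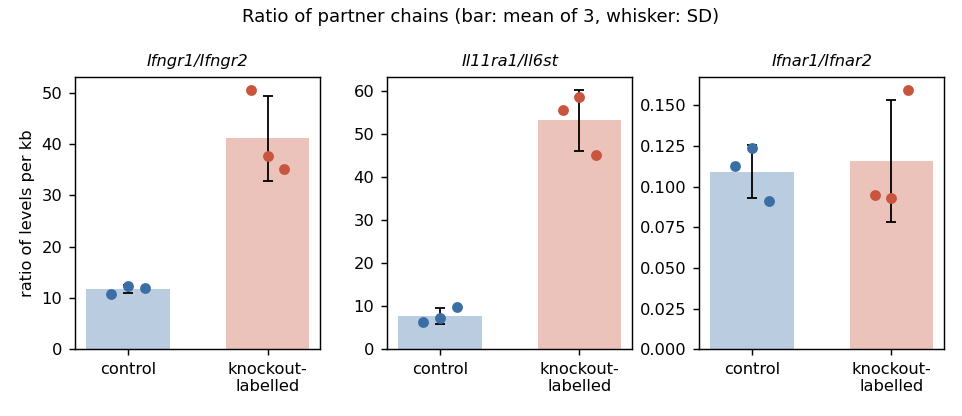
Ratio of the per-kb levels of 3 pairs of partner chains by library (points), with the mean (bar) and SD (whisker) of 3 control and 3 knockout-labelled libraries. The control ratios of Ifngr1 to Ifngr2 and of Il11ra1 to Il6st all lie below the knockout ratios, and those of Ifnar1 to Ifnar2 overlap.

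Among receptors of the gp130 and interleukin-12 type, 3 of 6 tested members were lower and 1 higher. Il6st (ENSMUSG00000021756) encodes gp130, the signalling chain shared by the interleukin-6, interleukin-11, interleukin-27 and leukaemia inhibitory factor receptors. It was at 307, 309 and 205 normalized counts in control and 44.8, 63.5 and 61.7 in knockout-labelled libraries. The groups were far apart, 4.83-fold by the means (log2 fold change -2.24, SE 0.28, limma adjusted p = 0.000205). Il31ra, which forms the interleukin-31 receptor with the oncostatin M receptor, fell from 171, 130 and 175 to 64.0, 83.3 and 95.9 (limma adjusted p = 0.0240). Leaving out control replicate 1 (0.0859) or 3 (0.102) or knockout replicate 1 (0.0553) ended this call. Il12rb2, the interleukin-12 chain that recruits STAT4, was at 134, 113 and 128 in control and 50.1, 77.0 and 32.0 in knockout, 2.35-fold lower (limma adjusted p = 0.0185), with the call lost without control replicate 1 (0.0633), 2 (0.0518) or 3 (0.0682). The gene lies across Serbp1 on the opposite strand (mean 19275 and 18654 normalized counts), and without stranded counting reads of such pairs cannot be told apart.

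Il11ra1, the interleukin-11 binding chain that signals through gp130, rose while Il6st fell. It was at 788, 897 and 816 in control and 1004, 1503 and 1125 in knockout (log2 fold change 0.52, SE 0.16, limma adjusted p = 0.0360), and was lost without control replicate 1 (0.109), 2 (0.0733) or 3 (0.113) or knockout replicate 2 (0.113). Its count is uncertain, because Il11ra2 is a close copy (at most 1 read in any library) and the annotated gene overlaps others. One of these, Galt on the same strand, was at 996 and 1861 normalized counts on average, itself higher (limma adjusted p = 0.00152). Per kb, the ratio of Il11ra1 to Il6st was 6.36, 7.22 and 9.88 in control and 55.6, 58.8 and 45.3 in knockout-labelled libraries (exact permutation p = 0.1, adjusted 0.15). The remaining tested genes of the class were not called: Il27ra, the interleukin-27 chain, had 75.0 ± 34.5 and 56.3 ± 12.3 normalized counts (limma adjusted p = 0.646), and Il12rb1, shared by the interleukin-12 and interleukin-23 receptors, had 21.6 ± 12.9 and 16.4 ± 11.6 (0.669). Il23r had no read.

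**Figure D3:**
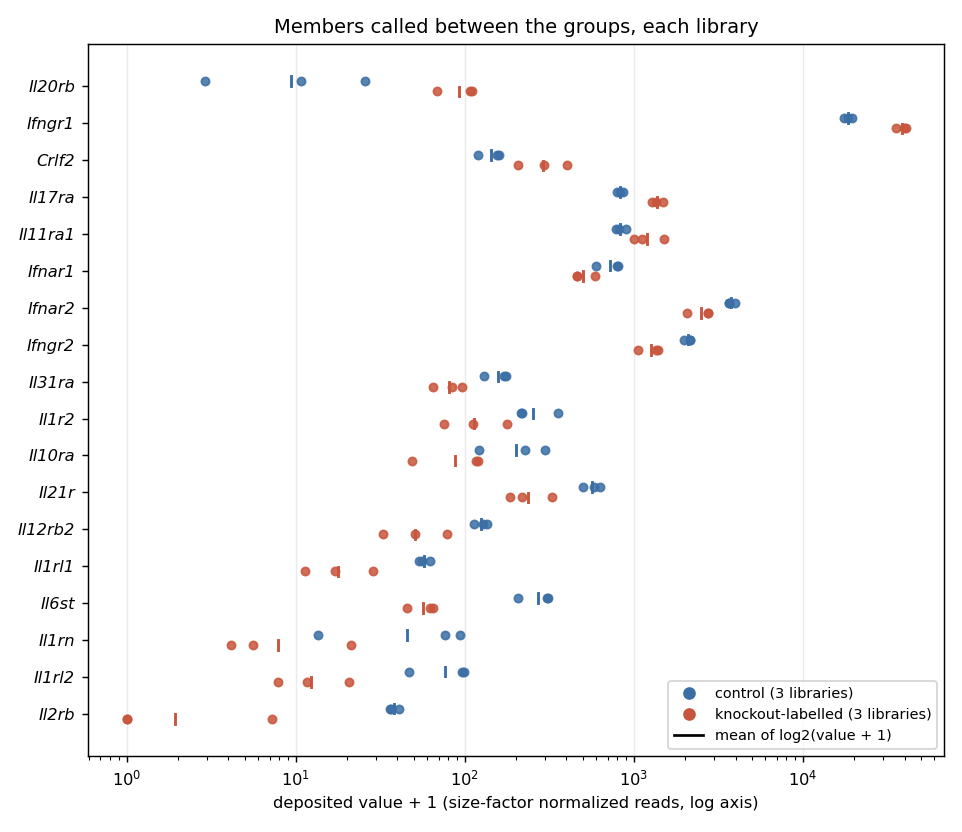
Normalized count + 1 (log axis) of the 18 called members in each of 3 control and 3 knockout-labelled libraries, with the mean of the log2 values as a bar, ordered by fold change. The groups are separate for 17 of them, and for Il1rn control replicate 3 lies below knockout replicate 1.

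In the gamma chain group Il21r and Il2rb were lower, Crlf2 was higher and 5 of the 8 tested members were not called. Il2rg, the common gamma chain, was at 1673, 1633 and 1942 in control and 1172, 1181 and 1659 in knockout; knockout replicate 3 lay among the controls and the gene was not called (log2 fold change -0.40, limma adjusted p = 0.0790, but 0.0112 without that library). Il21r (ENSMUSG00000030745), the interleukin-21 chain that pairs with it, was called: it was at 634, 498 and 583 in control and 218, 328 and 184 in knockout, 2.35-fold lower (log2 fold change -1.27, SE 0.23, limma adjusted p = 0.00196). Il2rb (ENSMUSG00000068227), the chain of the interleukin-2 and interleukin-15 receptors found on NK and T cells, was at 40.0, 35.4 and 35.6 in control. In the knockout-labelled libraries it was at 0, 6.25 and 0, where 0 allows up to 3.2 and 3.43 normalized counts (3 reads). The log2 fold change was -4.29 (SE 0.88, limma adjusted p = 0.00434); it was -5.25 without knockout replicate 2, -2.90 with a pseudocount of 4 and -4.98 with 0.5. Il7r, the interleukin-7 chain of lymphoid progenitors, was at 8.0, 26.8 and 49.0 against 4.27, 1.04 and 13.7, with overlapping groups (limma adjusted p = 0.102, 0.0462 without knockout replicate 3).

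The tested B lymphoid markers were all lower, while the list of T, NK and innate lymphoid markers held calls in both directions. Of 9 tested T, NK and innate lymphoid markers 5 were lower (Ncr1, Gzmb, Gzma, Klrd1 and Klrb1c) and 3 higher. Tcf7 was at 42.2 ± 14.1 and 457 ± 94.2 normalized counts, and Nkg7 was 1.61-fold higher. Zbtb16 was 2.33-fold higher by the means, at 358, 279 and 276 in control and 323, 659 and 1149 in knockout. Its groups overlapped (limma adjusted p = 0.0472). The list of 17 summed to 28822 to 30950 normalized counts in control and 38102 to 57050 in knockout, most of it Nkg7 (28955 and 46708 on average). Cd4 (16.85 ± 12.3 in control) and Eomes (8.78 ± 1.64), both below the tested range, had no read in the knockout-labelled libraries. The NK receptor gene Ncr1 was at 93.7 ± 52.9 in control and 0.347 ± 0.601 in knockout. The 13 B lymphoid markers summed to 2619 to 3302 and 1128 to 1487. Among them Vpreb3 (64.9 ± 17.1 in control) was at 0 in knockout. So were Pax5 (5.13 ± 1.21 in control) and Rag1 (1.78 ± 1.78), both below the tested range. The part of the lymphoid markers in the values of Il2rb, Il7r and Il21r was not tested.

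Crlf2, the chain that binds thymic stromal lymphopoietin and pairs with Il7r, was the single member of this group called higher. It was at 159, 154 and 118 in control and 207, 403 and 292 in knockout-labelled libraries, which lay above all controls (log2 fold change 1.02, SE 0.27, limma adjusted p = 0.0161). Leaving out control replicate 3 (0.0721) or knockout replicate 2 (0.0675) ended the call, as did correction for GC content and length (0.127). Il15ra, which presents interleukin-15, was at 806 ± 140 and 845 ± 88.0 (limma adjusted p = 0.764), and Il4ra, the interleukin-4 and interleukin-13 chain, at 575 ± 63.2 and 697 ± 155 (0.331). Il13ra1 was at 52.8 ± 37.3 and 26.6 ± 11.2 (0.405). Il2ra was read only in control replicate 2, with 2 reads, and Il9r and Il13ra2 had no read.

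Of 8 tested members of the interleukin-1 type, 4 were lower and 0 higher. Il1rl2 (ENSMUSG00000070942), the interleukin-36 receptor, was at 95.1, 45.9 and 98.0 in control and 10.7, 19.8 and 6.85 in knockout, 6.41-fold lower (log2 fold change -2.62, SE 0.52, limma adjusted p = 0.00340). Il1rl1, which encodes ST2, the interleukin-33 receptor of mast cells, basophils and innate lymphoid cells, was at 55.1, 52.6 and 61.5 against 27.7, 10.4 and 16.0 (log2 fold change -1.69, limma adjusted p = 0.0190). It missed the threshold without control replicate 1 (0.0560), 2 (0.0580) or 3 (0.0743) or knockout replicate 2 (0.0519). Il1r2, a decoy receptor that binds interleukin-1 without signalling, was at 354, 213 and 217 in control and 111, 73.9 and 176 in knockout (log2 fold change -1.16, limma adjusted p = 0.0230), and was lost without control replicate 1 (0.0992), knockout replicate 1 (0.0512) or knockout replicate 2 (0.0832).

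Il1rn, the secreted antagonist, was at 92.4, 75.5 and 12.5 in control and 20.3, 3.12 and 4.57 in knockout, with control replicate 3 inside the knockout range. It was called (log2 fold change -2.54, SE 0.83, limma adjusted p = 0.0421), but not without control replicate 1 (0.161) or 2 (0.161), knockout replicate 2 (0.137) or 3 (0.0994), or after GC and length correction (0.0589); without control replicate 3 the change was -3.42 and without knockout replicate 1 -3.26. The chains that signal for interleukin-1 itself were not called. Il1r1, the signalling receptor, was at 65.5 ± 31.9 and 79.4 ± 30.2 normalized counts (limma adjusted p = 0.644), and Il1rap, the co-receptor shared with the interleukin-33 and interleukin-36 receptors, at 359 ± 42.2 and 334 ± 55.9 (0.711). The interleukin-18 chains Il18r1 (35.5 ± 9.33 and 43.8 ± 26.8) and Il18rap (364 ± 30.4 and 442 ± 61.5) were not called either (0.820 and 0.286), although Il18rap was higher after GC and length correction (0.0297). Il1r2 stood 15.5 ± 7.21 times as high as Il1r1 per kb in control and 5.11 ± 0.987 times in knockout (exact permutation p = 0.1, adjusted 0.15). The neuronal co-receptor genes Il1rapl1 and Il1rapl2 had no read.

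Of 14 tested markers of mast cells, basophils and eosinophils, cells that can carry ST2, 8 were lower, 4 were not called and 2 were higher. The higher ones were Mcpt8, a basophil protease gene (7028 ± 1139 and 10907 ± 2388), and Siglecf, of eosinophils (1.64-fold). The lower ones included Prss34 (27876 and 891 on average, 31.3-fold), Epx (7.02-fold) and Ms4a2 (4.81-fold). The list summed to 101030 to 107595 in control and 50839 to 64328 in knockout. In that list Tpsb2, below the tested range, was at 0, 8.6 and 12.5 in control and at 0 in knockout. The 12 monocyte and macrophage markers summed to 106439 to 124958 in control and 56524 to 115686 in knockout, overlapping ranges. Most of that sum was Ly6c2 (61439 and 77619 on average, not called), while Lyz2 fell from 29070 to 6694 and F13a1 from 12565 to 2187. The 12 dendritic markers summed to 15230 to 30052 and 3301 to 7906, with no marker of either list at 0. Their part in the falls of interleukin-1 type and interferon receptor chains was not tested.

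Il17ra (ENSMUSG00000002897), the chain shared by the interleukin-17 receptors, rose in every knockout-labelled library. It was at 830, 798 and 866 in control and 1279, 1358 and 1491 in knockout, 1.66-fold higher (log2 fold change 0.72, SE 0.13, limma adjusted p = 0.00199). Its partner Il17rb, the interleukin-25 chain, was at 267, 131 and 196 against 106, 120 and 118, with the groups apart, but was not called (log2 fold change -0.73, limma adjusted p = 0.0788; 0.0375 without control replicate 2). Per kb, Il17ra stood 1.94 ± 0.642 times as high as Il17rb in control and 5.15 ± 0.288 times in knockout (exact permutation p = 0.1, adjusted 0.15). The annotated Il17rb gene overlaps Actr8 on the opposite strand (mean 1570 and 1422 normalized counts). Without stranded counting, reads of such a pair cannot be told apart. Il17re was below the tested range, at 14.2, 14.3 and 8.02 in control and 6.4, 0 and 2.28 in knockout, and Il17rc and Il17rd never had more than 2 reads.

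Among the interleukin-10 type, Il20rb (ENSMUSG00000044244) had the largest rise of any member. This chain of the interleukin-19, interleukin-20 and interleukin-24 receptors was at 24.9, 1.91 and 9.80 in control and 67.2, 109 and 106 in knockout-labelled libraries, 7.73-fold higher (log2 fold change 3.32, SE 0.69, limma adjusted p = 0.00470). The change was 4.05 without control replicate 1 and 2.48 without control replicate 2, the highest and lowest controls. Its partner chains were scarcely read: Il20ra was at 0, 1.91 and 27.6 in control and had no read in knockout, and Il22ra1 had no read in any library. Il10ra, the interleukin-10 binding chain, was at 225, 296 and 120 in control and 48.0, 119 and 115 in knockout, where control replicate 3 lay just above knockout replicate 2 (log2 fold change -1.19, limma adjusted p = 0.0492). It missed the threshold without control replicate 1 (0.127) or 2 (0.200) or knockout replicate 1 (0.144) or 2 (0.0587), with TMM rescaling (0.0507) and with a pseudocount of 0.5 (0.0525). Il10rb, the chain it shares with the interleukin-22 and interferon-lambda receptors, was at 1711 ± 106 and 1454 ± 213 (limma adjusted p = 0.214). Il22ra2, a soluble decoy for interleukin-22, was at 352 ± 18.4 and 378 ± 106 (0.840).

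**Figure D4:**
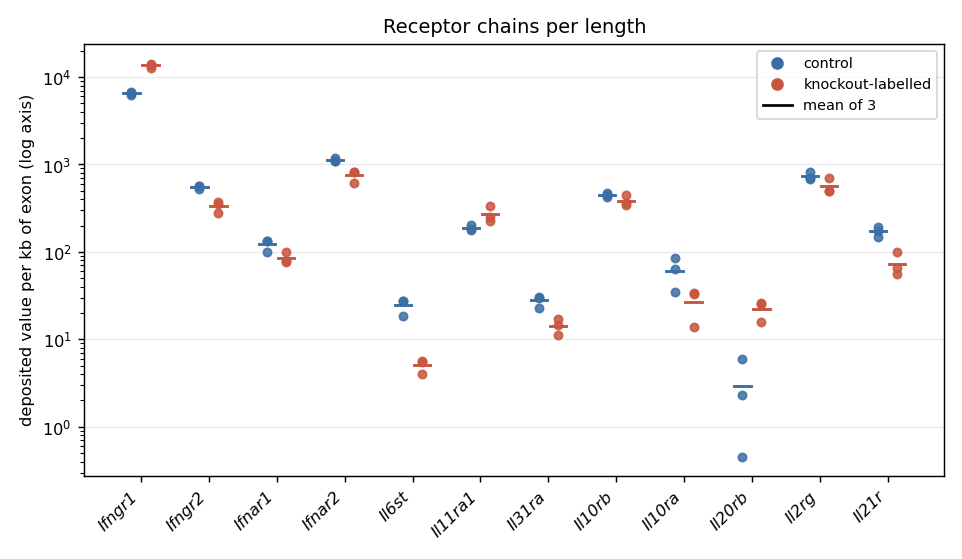
Normalized counts per kb of exon (log axis) of 12 receptor chains in each control and knockout-labelled library, with the mean of 3 as a bar. Ifngr1 stands above every other chain in both groups and rises, while Ifngr2, Ifnar1, Ifnar2 and Il6st fall.

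Pathway genes downstream were taken from lists written with earlier results known. For comparison, 11.8% of all genes tested were called higher and 15.0% lower. Of 12 JAK and STAT genes, 1 was higher and 6 lower (median log2 fold change -0.51, against 0.01 over all genes). Stat4, which relays interleukin-12 signals, was at 934 ± 146 and 41.0 ± 3.07 normalized counts (limma adjusted p = 3.73e-07), 22.8-fold lower. Irf9, a DNA-binding factor of the type I interferon response, was 3.17-fold lower (3.35e-05), and Jak1, the kinase of most class I and II receptors, 1.47-fold lower (0.00445). Stat2 (0.0241) and Jak2 (0.0490) were lower too, but Stat2 was not called without control replicate 1 (0.0905), 2 (0.0576) or 3 (0.0856) or knockout replicate 2 (0.0681). Jak2 was not called without any 1 control (0.0702 to 0.174) or without knockout replicate 2 (0.0696) or 3 (0.127). Stat3, which relays gp130 signals, was at 1256 ± 36.7 and 1945 ± 557 and was called higher (0.0300), a call lost without control replicate 1 (0.0626), 2 (0.0969) or 3 (0.0955) or knockout replicate 2 (0.0651) or 3 (0.0705).

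Of 22 genes of interleukin-1 and interleukin-17 signalling, 5 were higher and 0 lower (median log2 fold change -0.08), against 11.8% and 15.0% of all genes. Tab1, an activator of the kinase TAK1, was 2.07-fold higher (limma adjusted p = 0.00190), Nfkb1 1.51-fold (0.00265), the receptor kinase Irak1 1.46-fold (0.00441) and the ubiquitin ligase Traf6 1.71-fold (0.0104). Nfkbia, an NF-kB inhibitor, was 1.38-fold higher (0.0451), but not without control replicate 1 (0.192) or 3 (0.115) or knockout replicate 2 (0.132) or 3 (0.0777). Myd88, the adaptor of interleukin-1 type receptors, was at 2062 ± 332 and 1610 ± 195 (0.100). Of 18 feedback inhibitors 2 were higher and 2 lower, near the 11.8% and 15.0% of all genes tested. Usp18, an interferon-induced brake on Ifnar2, was at 304 ± 163 and 10.4 ± 4.73 (limma adjusted p = 3.71e-05) and Socs5 was 6.70-fold lower (0.000657). Cish, a STAT5 target, was 2.00-fold higher (0.0268) and Socs2 was at 6.88 ± 9.54 and 33.7 ± 20.0 (0.0475). The call of Cish was lost without control replicate 2 (0.0844) or 3 (0.105) or knockout replicate 2 (0.0728) or 3 (0.0716), and that of Socs2 without control replicate 2 (0.111) or 3 (0.142), without knockout replicate 1 (0.0593), 2 (0.113) or 3 (0.151), in edgeR (0.107) and in DESeq2 (0.0855). Without control replicate 3 the log2 fold change of Socs2 was 1.87 in place of 2.90.

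Ligands were mostly at low counts. Of 43 ligand genes measured, 14 were tested, with 0 higher and 3 lower, against 11.8% and 15.0% of all genes tested. Ebi3, a subunit of interleukin-27 and interleukin-35, was at 821 ± 33.9 and 261 ± 87.5 normalized counts (limma adjusted p = 0.00026). Il18 was at 28.4, 50.6 and 57.0 in control with no read in knockout, at least 14-fold lower taking 3 reads per library as the floor. Il15 was at 525 ± 113 and 286 ± 29.7 (0.00764; 0.0521 without control replicate 3). Ifng and Ifnb1, which encode interferon-gamma and interferon-beta, had no read in any library. The 3 alpha chains left out by the rule were not called by limma: Il3ra was at 67.0 ± 19.5 and 83.9 ± 49.3, Il5ra at 103 ± 22.0 and 69.5 ± 23.3, and Il6ra at 426 ± 115 and 278 ± 38.1 (adjusted p = 0.741, 0.229 and 0.0682).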

How the data were processed

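Sorted GMP RNA went through SMARTer low-input amplification into Ion Torrent libraries, per the labels' protocols. Tools listed in the submitters' processing notes are HTSeq, STAR, BWA 0.7.5a, Picard and DESeq2, and builds NCBIM37 and mm9. Whether HTSeq used strand was not given. The signal deposited for each gene was a read count scaled by the authors with 1 factor per library: 100% of values above 0 were whole multiples of 1 step (tolerance 0.01 of a read; 0.8885 to 1.1419 per read). They are called normalized counts. The 5 rows naming no gene were left out; 22.9 to 25.2% of listed reads fell in genes, and 26.8 to 28.8% aligned to several places and were not assigned. Reads came from PCR without molecular identifiers, so floors of 3 reads cover counting error only.

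Symbols (32897 of 37620 IDs) and exon lengths came from GENCODE M21 on GRCm38, another build than the files', so no gene coordinates are given beside the RefSeq windows. The test was limma 3.58.1 (R 4.3.3) with trend on log2(value + 1), genes with mean value of at least 10, group as sole term, 2-sided. Adding 1 shrinks the log2 changes of low genes. Folds are ratios of group means and log2 fold changes are differences of mean logs, so they can differ. Count tests on the recovered reads (edgeR 4.0.16, DESeq2 1.42.0), TMM scaling, pseudocounts, filters, a replicate block, sex as a term (each group held 1 female by Xist and Y-linked genes), GC and length correction and leaving out each library were alternatives. Of 14458 genes tested in edgeR, 1687 were higher and 2077 lower, and 3663 of these calls were also made by limma in the same direction. In simulated counts for 14204 genes, limma called 10.2, 36, 88 and 96% of genes changed 1.5-, 2-, 4- and 8-fold, and 6 of 121 calls were false. Only 49 or 50 genes were changed at each fold, while 3858 of 14391 were called in the data. The simulated rates therefore do not carry over to these data.

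The members and lists were chosen with earlier results of these data known. Genes named were every called member, every tested member with a mean of at least 100, members below the filter with 3 reads in a library, and the leading genes of each list; other members named were chosen after their values were seen. One gene of the JAK and STAT list is not reported here by name.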

Additional observations from a re-analysis of the deposited data

How the results depend on the processing

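No called member changed direction in the 16 alternatives, and 9 of 18 kept their call in all that tested them. Members called higher numbered 5 in every alternative that kept all libraries, and 3 to 5 without single libraries; in GC and length correction 4 of the 5 were shared with limma's calls, Il18rap replacing Crlf2. Members called lower numbered 9 to 13 with all libraries kept, the lowest over genes with a mean of at least 50, where fewer members were tested, and 6 to 14 without single libraries. Over all genes, the calls ran from 1032 to 1791 higher and from 1372 to 2324 lower without single libraries. GC and length correction, over 13794 genes, gave 1884 lower and 2640 higher, moving the lower calls from 56.1% to 41.6% of all calls; the cause was not tested. Without a filter beyond 1 read, where more genes were tested, Ifnar1 (adjusted p = 0.0532), Il10ra (0.0740) and Il1rn (0.0669) were lost. Il6ra was called lower by DESeq2 alone among the tests (0.0472). Same-numbered libraries did not deviate together (r = -0.104, 0.0417 and -0.058). No pairing by number was seen, but such a check cannot exclude one. The replicate block gave 5 members higher and 12 lower, with Ifnar1 lost (limma adjusted p = 0.0693), and 1550 genes higher and 2014 lower. The filter on a mean of 10 left 13 members untested, of which 6 had no read; depth and absence of expression cannot be told apart there.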

Other observations

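Many members lie beside one another in the genome, and neighbours did not always move together. Of the 4 receptor genes in a row on chromosome 16, Ifnar2, Ifnar1 and Ifngr2 were lower and Il10rb, between the former pair, was not called. Of the 6 interleukin-1 type genes in a row on chromosome 1, Il1r2, Il1rl2 and Il1rl1 were lower, while Il1r1, Il18r1 and Il18rap were not called. Il6st and Il31ra, neighbours on chromosome 13, were both lower. On chromosome 10, Ifngr1 was higher, Il22ra2 was not called and Il20ra was below the tested range. Il4ra and Il21r, neighbours on chromosome 7, were not called and lower. Runs were taken as members less than 500 kb apart in the M21 annotation, and no test was made of them.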
